A study of Mus musculus with 16 samples.

Results

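Srpx, Numbl, Arhgap15 and Lrrc17 are 4 protein-coding genes of the 24454 in a count table of mouse gonadal fat, and each was measured in 16 RNA libraries. They were chosen by the small unadjusted p of the surgery by infusion interaction, that is, of the difference between the SHU9119 response in mice with a cut vagus nerve and that in sham-operated mice. In all 4 the level was low in sham mice given SHU9119 and high in vagotomized mice given SHU9119. All 4 passed the filter on low counts, which kept 16682 genes.

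The tissue came from lean male C57BL/6J mice, an inbred strain without an engineered allele, 16 weeks old and kept on chow. VX_SHU mice had subdiaphragmatic vagotomy (sDVX), in which the vagus is cut below the diaphragm, and from 4 weeks later SHU9119 in the brain ventricles at 1 nmol per day for 2 weeks. VX_Veh mice had sDVX and vehicle, Sham_SHU mice sham surgery and SHU9119, and Sham_Veh mice sham surgery and vehicle. Every group carried a minipump and was fed the same calories, and each of the 4 groups held 4 libraries. sDVX removes vagal fibres to all organs below the cut, so it is not a selective denervation of fat. The labels do not tie libraries to single mice, so the p-values given here measure the spread between libraries.

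SHU9119 is a peptide that blocks the melanocortin receptors of the brain, through which leptin-responsive neurons restrain feeding and drive sympathetic outflow to fat. Gonadal fat holds adipocytes together with stromal, vascular and immune cells, and RNA of the whole depot mixes them. Srpx encodes a sushi-repeat protein of the cell surface and matrix, first described in rat cells as a gene silenced by the v-src oncogene. Lrrc17 encodes a secreted leucine-rich repeat protein that in mouse bone restrains the RANKL signal for osteoclast formation. Numbl encodes an adaptor related to Numb, which holds back Notch signalling, and Arhgap15 a GTPase-activating protein that turns off Rac, mainly in blood cells.

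The 4 genes lie on different chromosomes of GRCm38 (mm10), with spans from RefSeq. Srpx spans chrX:10037977-10117640 on the minus strand. The plus strand holds Numbl at chr7:27258438-27282150, Arhgap15 at chr2:43748798-44395953 and Lrrc17 at chr5:21543527-21575911. Since the members share their pattern over the groups by selection, the 250 bases before each RefSeq start site are shown for what the promoters have in common. They run 5′ to 3′ on the strand of the gene, and capitals mark matches on either strand to 5 motifs: the GC box GGGCGG, the CCAAT box, the TATA box TATAAA, the E box CACGTG and the cAMP response element TGACGTCA. The windows are chrX:10117641-10117890 for Srpx, chr7:27258511-27258760 for Numbl, chr2:43748574-43748823 for Arhgap15 and chr5:21543277-21543526 for Lrrc17. The start sites used for Numbl and Arhgap15 lie inside the spans above. Those windows thus lie wholly (Numbl) or partly (Arhgap15) within the gene span.
Srpx: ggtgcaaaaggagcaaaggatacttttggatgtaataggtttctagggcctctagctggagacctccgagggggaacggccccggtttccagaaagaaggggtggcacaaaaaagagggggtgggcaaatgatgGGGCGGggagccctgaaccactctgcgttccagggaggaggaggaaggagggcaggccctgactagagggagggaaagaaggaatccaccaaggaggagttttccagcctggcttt
Numbl: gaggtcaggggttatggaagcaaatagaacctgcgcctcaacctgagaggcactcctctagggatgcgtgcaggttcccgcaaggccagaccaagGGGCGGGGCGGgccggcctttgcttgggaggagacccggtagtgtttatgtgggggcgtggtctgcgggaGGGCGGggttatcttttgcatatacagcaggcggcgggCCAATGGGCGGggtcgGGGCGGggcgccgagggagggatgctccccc
Arhgap15: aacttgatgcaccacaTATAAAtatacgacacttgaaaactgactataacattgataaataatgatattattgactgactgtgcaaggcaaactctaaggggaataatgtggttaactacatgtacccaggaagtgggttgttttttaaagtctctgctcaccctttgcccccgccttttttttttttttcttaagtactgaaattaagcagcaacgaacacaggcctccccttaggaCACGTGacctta
Lrrc17: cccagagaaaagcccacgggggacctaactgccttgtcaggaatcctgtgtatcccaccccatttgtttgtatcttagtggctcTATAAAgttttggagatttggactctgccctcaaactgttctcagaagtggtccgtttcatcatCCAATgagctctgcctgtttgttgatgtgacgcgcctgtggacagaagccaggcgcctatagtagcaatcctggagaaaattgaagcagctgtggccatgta

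No motif was found in all 4 windows, and TGACGTCA was in none of them. GGGCGG had 1 match before Srpx and 5 before Numbl, and 32.7% of 32851 windows of the same length hold it. The Numbl and Lrrc17 windows each had 1 CCAAT (33.8% of windows), and in Numbl it abuts a GC box. TATAAA was in the Arhgap15 and Lrrc17 windows (12.4% of windows) and CACGTG in the Arhgap15 window (6.02%), while TGACGTCA is in 1.55% of all windows. A second Arhgap15 start site in RefSeq had none of the 5 motifs. The share of G and C was 56.8% for Srpx, 66.0% for Numbl, 38.4% for Arhgap15 and 49.2% for Lrrc17, against a median of 52.4%.

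Libraries held 20425295 to 30889052 counts, and each member had 92 to 912 counts in each library. Adipocyte markers were abundant throughout, with all 13 detected and a summed level of 30740 to 85070 CPM (counts scaled to library size). Markers of neighbouring tissue were high in some libraries. The epididymis markers summed to 10940 CPM in VX_SHU4, 10160 in VX_Veh4, 3342 in Sham_SHU4, 1668 in Sham_SHU3, 648.6 in Sham_Veh3 and 551.4 in Sham_Veh4, and to at most 64.22 in the other 10 libraries. Testis and sperm markers reached 1504 CPM in Sham_SHU3 and 3083 in Sham_Veh4. Of 13 such markers, 13 had an interaction log2 difference above 0, with a median of 0.89 and 0 that passed. Of 7 epididymis markers past the filter, 3 were above 0, with a median of −1.42 and 0 that passed. These 6 libraries are the ones left out below where results are given without libraries high in such markers.

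Srpx, the sushi-repeat gene, had the smallest interaction p of 16682 genes. It stood at 33.9, 28.3, 26.0 and 34.1 CPM in the VX_SHU libraries, against 27.3, 24.9, 25.7 and 22.5 CPM in VX_Veh. In the Sham_SHU libraries it stood at 18.1, 19.2, 20.6 and 18.5 CPM, against 33.6, 30.8, 35.7 and 24.6 CPM in Sham_Veh. The Sham_SHU libraries were the lowest of all 16 and overlapped no other group, while the VX_SHU and VX_Veh libraries overlapped through VX_SHU3. The log2 fold change for SHU9119 was 0.29 ± 0.117 (SE) after sDVX and −0.71 ± 0.118 after sham surgery. That for sDVX was 0.68 ± 0.118 under SHU9119 and −0.31 ± 0.117 under vehicle. In order of means, Sham_Veh (31.17 ± 4.84 CPM) and VX_SHU (30.57 ± 4.04) differed by less than their SDs, and VX_Veh (25.08 ± 2.02) and Sham_SHU (19.11 ± 1.07) stood below them (SD, n = 4 each). In whole tissue, fewer cells that express a gene and less RNA per cell cannot be told apart.

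Lrrc17, the secreted leucine-rich repeat gene, had a similar order of groups. It stood at 26.2, 25.9, 18.5 and 28.2 CPM in the VX_SHU libraries, against 19.6, 19.8, 19.1 and 16.5 CPM in VX_Veh. The Sham_SHU libraries held 15.7, 15.6, 19.8 and 16.4 CPM, against 26.3, 24.7, 22.1 and 19.5 CPM in Sham_Veh. Both pairs overlapped by 1 library, with VX_SHU3 low in its group and Sham_SHU3 high in its group. The log2 fold change for SHU9119 was 0.40 ± 0.134 (SE) after sDVX and −0.46 ± 0.134 after sham surgery. That for sDVX was 0.55 ± 0.134 under SHU9119 and −0.30 ± 0.134 under vehicle. The means of VX_SHU (24.68 ± 4.25 CPM) and Sham_Veh (23.16 ± 2.99) differed by less than the larger SD, as did those of VX_Veh (18.75 ± 1.53) and Sham_SHU (16.87 ± 1.98; SD, n = 4 each).

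Numbl, the Numb-related adaptor, differed from the others in that the VX_SHU group stood apart. It was at 27.4, 26.7, 27.3 and 23.7 CPM in the VX_SHU libraries, against 21.5, 19.6, 20.4 and 19.5 CPM in VX_Veh. The Sham_SHU libraries held 18.0, 18.9, 19.8 and 17.7 CPM, against 20.3, 23.4, 22.3 and 18.3 CPM in Sham_Veh. All VX_SHU libraries were above all 12 others, whereas the Sham_SHU and Sham_Veh libraries overlapped through Sham_Veh4. The log2 fold change for SHU9119 was 0.37 ± 0.0815 (SE) after sDVX and −0.18 ± 0.0815 after sham surgery. That for sDVX was 0.50 ± 0.0816 under SHU9119 and −0.06 ± 0.0814 under vehicle, the last turning to 0.01 without Sham_Veh2. Sham_Veh (21.07 ± 2.28 CPM), VX_Veh (20.27 ± 0.929) and Sham_SHU (18.62 ± 0.943) followed VX_SHU (26.28 ± 1.73) in order of means (SD, n = 4 each).

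Arhgap15, the Rac-inactivating gene, was the least abundant member, with 92 to 267 counts per library. It stood at 8.55, 8.30, 7.17 and 8.13 CPM in the VX_SHU libraries, against 5.35, 6.64, 5.71 and 6.77 CPM in VX_Veh. The Sham_SHU libraries held 5.41, 4.16, 5.52 and 4.64 CPM, against 8.93, 7.94, 7.68 and 6.25 CPM in Sham_Veh. It was the 1 member in which SHU9119 and vehicle libraries did not overlap under either surgery, higher after sDVX and lower after sham surgery. The log2 fold change for SHU9119 was 0.39 ± 0.143 (SE) after sDVX and −0.64 ± 0.143 after sham surgery. That for sDVX was 0.70 ± 0.143 under SHU9119 and −0.33 ± 0.142 under vehicle. VX_SHU (8.038 ± 0.602 CPM) and Sham_Veh (7.699 ± 1.11) differed by less than their SDs, and VX_Veh stood at 6.117 ± 0.692 and Sham_SHU at 4.931 ± 0.646 (SD, n = 4 each).

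**Figure D1:**
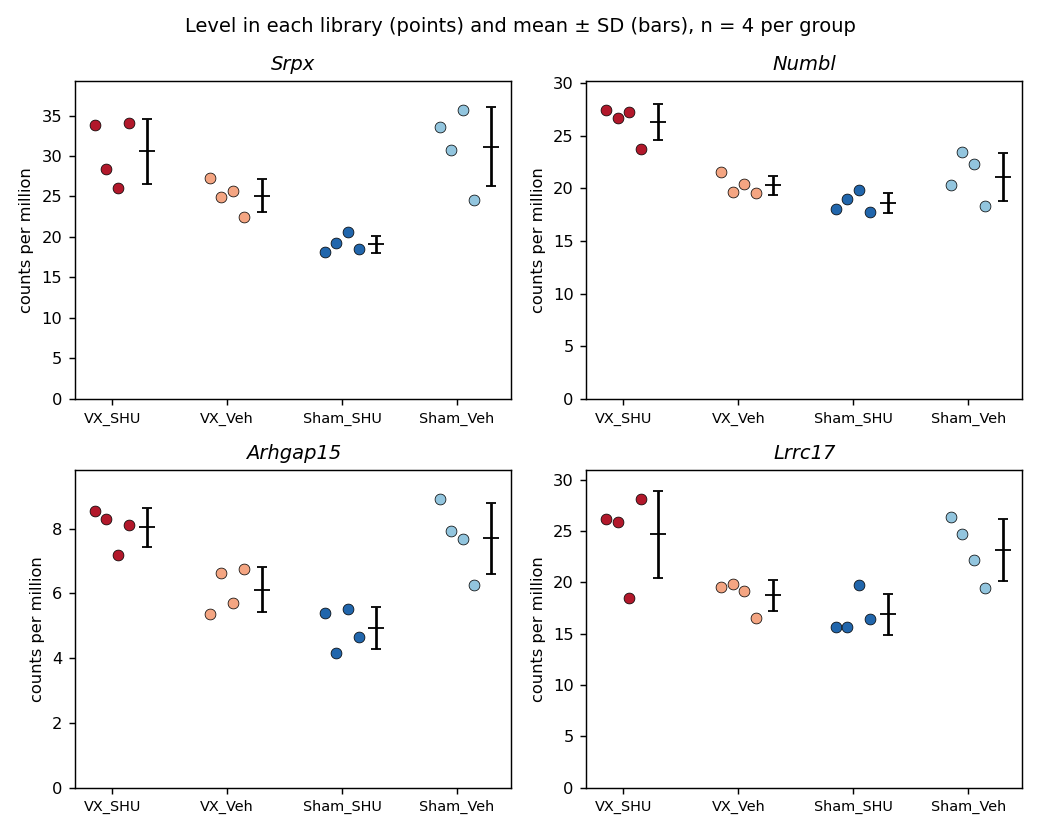
Level of Srpx, Numbl, Arhgap15 and Lrrc17 in CPM (vertical axes, from 0) in each library, by group; points are libraries and bars are mean ± SD of 4 libraries. In Srpx the 4 Sham_SHU libraries lie at 18.1 to 20.6 CPM, below all others, and in Numbl the 4 VX_SHU libraries lie at 23.7 to 27.4 CPM, above all others.

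The 4 differences between single groups are parts of the interaction that chose these genes, so they carry no test here. Over all genes the share without overlap of libraries was 2.93% higher with SHU9119 after sDVX and 4.82% lower with SHU9119 after sham surgery. Both together held for 4 genes (0.024%), which were Arhgap15, Ifi204, F630028O10Rik and 4930599N23Rik. The share higher in VX_SHU than in Sham_SHU without overlap was 3.2%, which included Srpx, Numbl and Arhgap15. In the other directions the shares were 2.03% lower with SHU9119 after sDVX, 5.6% higher with SHU9119 after sham surgery, and 2.44% lower with sDVX under SHU9119. For sDVX under vehicle they were 0.935% higher and 2.16% lower. By adjusted p, SHU9119 passed for 0.00599% of genes after sDVX (1 gene) and 0.114% after sham surgery (19), and sDVX for 0% under either infusion.

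The values that chose the members were the interaction log2 differences (the SHU9119 response after sDVX minus that after sham surgery) and their unadjusted p. They were 0.99 ± 0.166 (SE) for Srpx, 1.04 ± 0.202 for Arhgap15, 0.55 ± 0.115 for Numbl and 0.85 ± 0.189 for Lrrc17, with ranks of 1, 3, 4 and 6. The unadjusted p ran from 3.67e-05 for Srpx to 0.000506 for Lrrc17 in the edgeR quasi-likelihood fit, and the adjusted p from 0.612 to 0.957. The edgeR fit called 0 of 16682 genes for this interaction (0%), and 4.76% of genes (794) had an unadjusted p under 0.05. The count was 8 with DESeq2, and limma-voom gave 13.

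Just around the members in this ranking were Ifi204 (rank 2), Scd2 (rank 5) and Emp1 (rank 7). Ifi204, an interferon-inducible DNA sensor gene, had an interaction log2 difference of 0.79 ± 0.146 (SE). Emp1, an epithelial membrane protein gene, had 0.96 ± 0.218, and its VX_Veh group stood lowest. Scd2, a stearoyl-CoA desaturase gene, had −1.67 ± 0.365, of opposite sign to the members.

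Since the interaction chose the genes, its values in other fits are a description too. With 1 library left out at a time it ranged from 0.92 to 1.09 for Srpx, 0.50 to 0.61 for Numbl, 0.96 to 1.11 for Arhgap15 and 0.78 to 0.97 for Lrrc17 over the 16 fits, each of which shares 15 libraries with the full one. The rank ranged from 1 to 3 for Srpx, 2 to 25 for Numbl, 2 to 11 for Arhgap15 and 2 to 15 for Lrrc17. Without the 6 libraries with an epididymis or testis marker sum of at least 500 CPM, the log2 differences were 0.99 for Srpx, 0.67 for Numbl, 1.27 for Arhgap15 and 0.99 for Lrrc17, with ranks of 5, 15, 22 and 23. Without VX_SHU4 and VX_Veh4 alone, they were 0.88 for Srpx, 0.58 for Numbl, 1.08 for Arhgap15 and 0.73 for Lrrc17, with ranks of 2, 9, 10 and 33. The part of neighbouring tissue in the interaction was not tested.

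**Figure D2:**
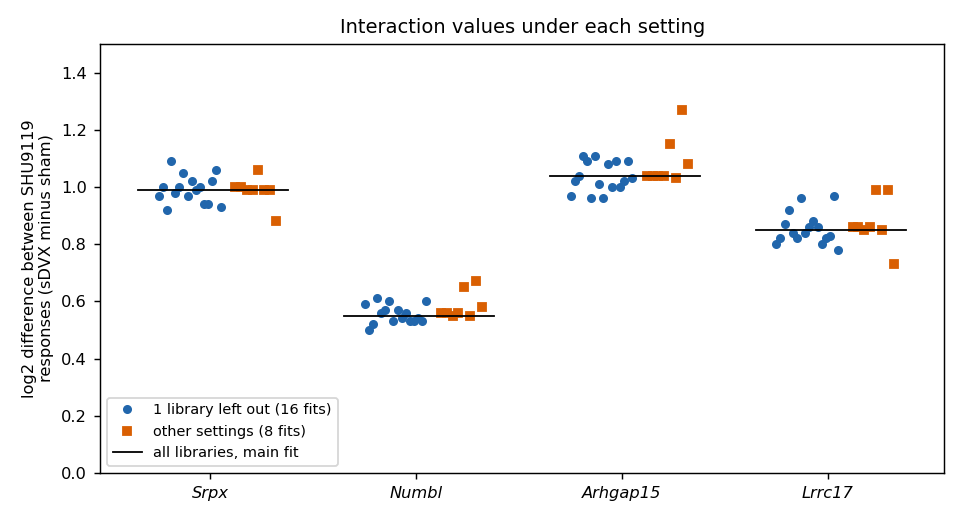
Interaction of SHU9119 and sDVX in log2 units (vertical axis) for the 4 genes under each setting; circles leave out 1 library, squares are 8 other settings and lines the fit to all 16 libraries. The leave-one-out values stay within 0.92 to 1.09 for Srpx and 0.50 to 0.61 for Numbl, and the highest square for Arhgap15 is 1.27 without 6 libraries.

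The effects averaged over the other factor are close to independent of the interaction in this balanced design, although they share its estimate of spread, so they were tested for the members. All 4 members had SHU9119 responses of opposite sign in the 2 surgeries, whereas the means of Scd2 and Emp1, ranked beside them, rose under both. Opposite signs pull the SHU9119 average towards 0, so its test says little about these genes. SHU9119 averaged over both surgeries passed for 0 of the 4 genes, where 1.87% of all 16682 genes passed (312), 1.5% higher and 0.366% lower. Srpx was closest, with a log2 fold change of −0.21 ± 0.0829 (SE; edgeR adjusted p = 0.123). Numbl had 0.10 ± 0.0576 (edgeR adjusted p = 0.278), Arhgap15 −0.12 ± 0.101 (0.440) and Lrrc17 −0.03 ± 0.0944 (0.853). The value of Srpx passed with limma-voom (−0.23, adjusted p = 0.021) and without the 6 libraries high in epididymis or testis markers (−0.28, edgeR adjusted p = 0.0403). Over all genes those fits called 23.4% with limma-voom and 24.4% without the 6 libraries. The fit without the 6 libraries has fewer sham than sDVX libraries. It is no longer balanced, so its averaged effects are less independent of the interaction that chose the genes.

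sDVX averaged over both infusions also passed for 0 of the 4 genes, and for 0% of all genes. Here 2666 genes had an unadjusted p under 0.05 in edgeR, and DESeq2 called 409 genes and limma-voom 112. All 4 members had positive values, of which that of Numbl had the smallest p, 0.22 ± 0.0576 (SE; edgeR adjusted p = 0.224, unadjusted 0.00188). It passed with DESeq2 (0.21, adjusted p = 0.0212), which called 2.45% of genes. Srpx had 0.18 ± 0.0829 (edgeR adjusted p = 0.305), Arhgap15 0.19 ± 0.101 (0.375) and Lrrc17 0.12 ± 0.0945 (0.522).

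**Figure D3:**
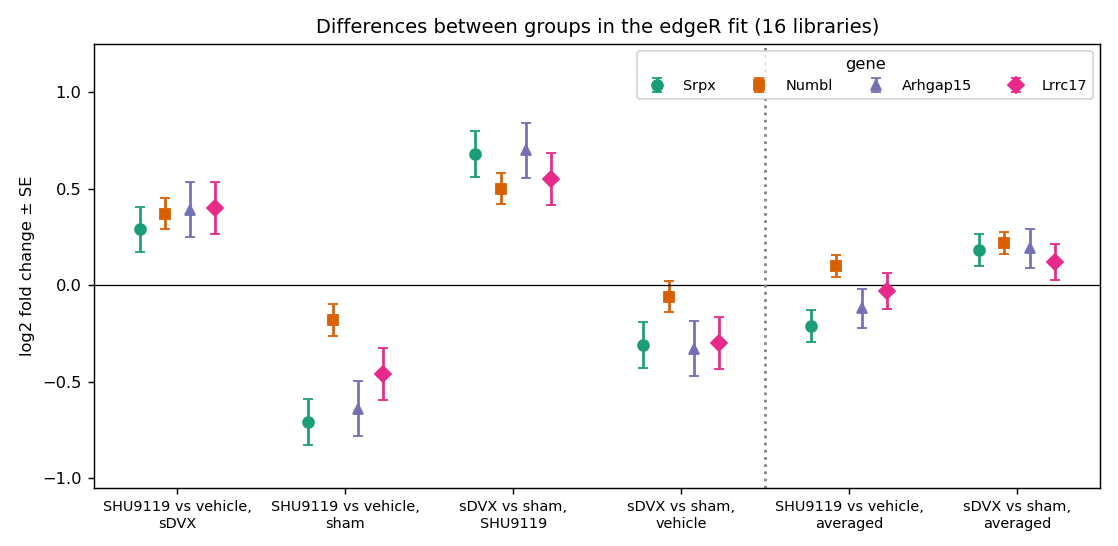
Log2 fold changes with SE (vertical axis) of the 4 genes for SHU9119 against vehicle and for sDVX against sham, in each stratum (left of the dotted line, parts of the interaction that chose the genes) and averaged (right of it). All 4 genes are above 0 for SHU9119 after sDVX and below 0 after sham surgery, and the averaged values lie between −0.21 and 0.22.

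Between libraries of the same group, where the group pattern plays no part, Srpx and Lrrc17 moved together most among the 6 pairs of members. Their deviations from the group means gave a Pearson r of 0.745 and a Spearman rho of 0.629 over 16 libraries (exact permutation within groups, two-sided p = 0.00332 and 0.018). Adjusted over the 74 pairs of members and of members with marker lists, p was 0.124 and 0.334, so it did not pass. Without Sham_SHU1 and Sham_SHU4, the libraries farthest from the Srpx median, r was 0.734. Arhgap15 and Lrrc17 gave r = 0.545 and rho = 0.535 (exact permutation p = 0.0357 and 0.0455, adjusted 0.260 and 0.353), and r = 0.520 without Sham_SHU2 and Sham_SHU4. The pairs with Numbl had r of 0.128 with Arhgap15, 0.173 with Lrrc17 and 0.399 with Srpx, with adjusted exact permutation p of 0.727 to 0.991. Sham_Veh4 was lowest of its group in all 4 genes, and VX_SHU3 was lowest of its group in Srpx, Arhgap15 and Lrrc17.

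**Figure D4:**
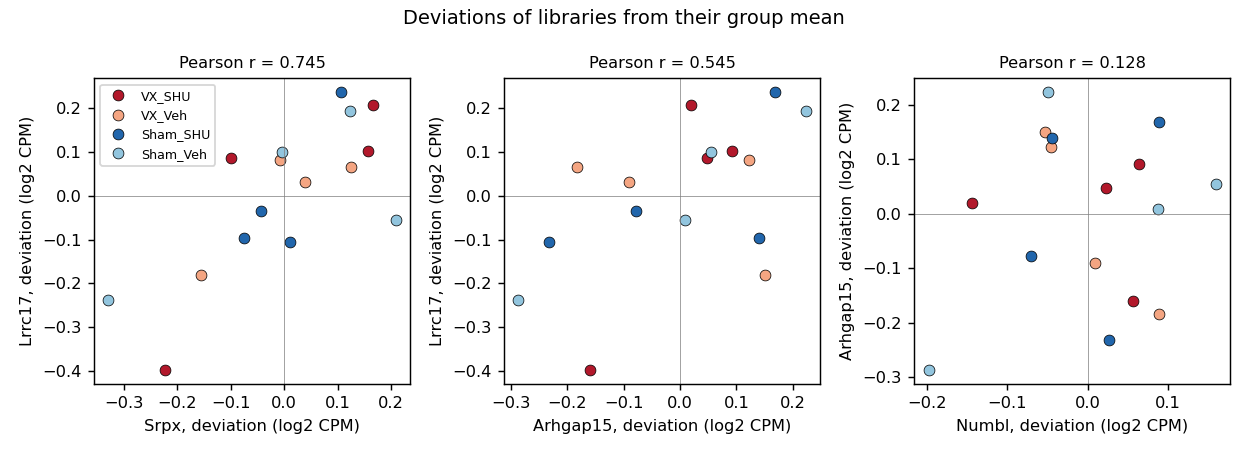
Deviation of each library from its group mean in log2 CPM (both axes) for 3 pairs of the genes, coloured by group. Lrrc17 follows Srpx (r = 0.745) and less so Arhgap15 (r = 0.545), while Arhgap15 and Numbl give r = 0.128; none passed after adjustment.

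The genes whose level over the 16 libraries was most like that of each member, among 11671 other genes with a mean of at least 5 CPM, are given with r. For Srpx they were Asap3, which regulates Arf GTPases (r = 0.912), the gelatinase gene Mmp2 (0.882), Lrrc17 itself (0.880), the ectonucleotidase gene Entpd2 (0.870) and Frmd6 (0.859). For Lrrc17 they were the mast cell protease gene Mcpt4 (0.901), Mmp2 (0.894), a further mast cell protease gene, Cma1 (0.884), Asap3 (0.883) and Srpx (0.880). With group means removed, r for these ranged from 0.745 to 0.873 for Srpx and from 0.721 to 0.840 for Lrrc17. Mmp2 averaged 88.14 ± 19 CPM in VX_SHU and 70.18 ± 4.67 in VX_Veh, and 54.22 ± 6.34 in Sham_SHU and 77.26 ± 12.9 in Sham_Veh (SD, n = 4 each).

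Arhgap15 was most like Dcn, which encodes the matrix proteoglycan decorin (r = 0.890), Snhg18, a small nucleolar RNA host gene (0.885), the class I-like histocompatibility gene H2-M3 (0.878), Cma1 (0.858) and the collagen gene Col6a6 (0.856). Dcn averaged 1657 ± 333 CPM in VX_SHU and 1410 ± 104 in VX_Veh, and 1105 ± 235 in Sham_SHU and 1676 ± 156 in Sham_Veh (SD, n = 4 each). Numbl had less close neighbours. They were Pura (0.795), the LIM-domain cofactor gene Ldb1 (0.787), Kmt2e (0.785), Hexim1, whose product holds back the elongation factor P-TEFb (0.749), and Clasrp (0.747). With group means removed, r was 0.766 for Ldb1 and 0.348 to 0.552 for the other Numbl neighbours. All of these r values are descriptions over 16 libraries, and the ranking used the group pattern.

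Mast cell proteases appear beside both Lrrc17 and Arhgap15, and the means of both were highest in VX_SHU and lowest in Sham_SHU. Cma1 stood at 10.08 ± 3.5 CPM in VX_SHU and 5.576 ± 0.924 in VX_Veh, and at 4.175 ± 1.9 in Sham_SHU and 8.218 ± 2.27 in Sham_Veh (SD, n = 4 each). Mcpt4 stood at 10.16 ± 3.73 CPM in VX_SHU and 6.126 ± 0.873 in VX_Veh, and at 4.464 ± 2.52 in Sham_SHU and 9.336 ± 2.97 in Sham_Veh. Their interaction log2 differences were 1.83 ± 0.468 (SE; edgeR adjusted p = 0.957) and 1.79 ± 0.526 (0.957), which did not pass. Of the 12 granulocyte and mast cell markers past the filter, 8 had an interaction above 0. Kit, the receptor gene of mast cells and some other cells, had another order, with 26.08 ± 2.85 CPM in VX_SHU and 36.33 ± 12.7 in VX_Veh, and 28.56 ± 5.11 in Sham_SHU and 28.3 ± 5.77 in Sham_Veh. The list of 14 granulocyte and mast cell markers, of which at most 1 was at 0 in a library, summed to 72.84 to 105.9 CPM in VX_SHU and 73.97 to 94.87 in VX_Veh. Its sum was 54.48 to 80.33 CPM in Sham_SHU and 64.1 to 95.93 in Sham_Veh.

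Within groups this sum had r = 0.719 with Lrrc17 (rho = 0.724), r = 0.713 with Srpx (rho = 0.632), r = 0.592 with Arhgap15 (rho = 0.547) and r = 0.350 with Numbl. The exact permutation p over 16 libraries was 0.00558, 0.0162 and 0.0352 for the r of Lrrc17, Srpx and Arhgap15, and 0.00641, 0.0309 and 0.0478 for their rho. Adjusted over 74 pairs, they were 0.138, 0.260 and 0.260 for r and 0.237, 0.353 and 0.353 for rho, so none passed. Without the 2 libraries farthest from the median of each gene, r was 0.670 for Lrrc17, 0.742 for Srpx and 0.513 for Arhgap15. Mesothelium markers gave r = 0.704 and rho = 0.697 with Lrrc17 (exact permutation p = 0.00336 and 0.0055, adjusted 0.124 and 0.237), and r = 0.630 without Sham_Veh1 and VX_SHU4. The mesothelium sum was 117.5 to 321.8 CPM in VX_SHU and 318.8 to 784.7 in VX_Veh, and 53.55 to 244 in Sham_SHU and 167.9 to 438.4 in Sham_Veh. It leans on the keratin genes Krt8 and Krt18, which reached 341 and 185 CPM. Of the 12 mesothelium markers, 5 were above 0 for sDVX under vehicle, with a median of −0.14, although the sum was highest in VX_Veh. Wt1 averaged 12.59 ± 4.05 CPM in VX_Veh and 17.24 ± 3.28 in Sham_Veh (SD, n = 4 each). The part of these cell types in the group differences of the members was not tested.

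Among the Rac pathway genes around Arhgap15, 33 besides the member were tested and 0 passed for SHU9119 averaged (1.87% of all genes) or sDVX averaged (0%). Their median log2 fold change was 0.11 for SHU9119 averaged, against −0.03 over all genes, and −0.03 for sDVX averaged, against 0.00. The closest were Nckap1 (0.24 ± 0.0599 SE; edgeR adjusted p = 0.0551) and Cyfip1 (0.17 ± 0.0446; 0.0587), subunits of the WAVE complex that acts below Rac. In the interaction the 4 genes with the smallest p were those of blood cells. They were Rac2 (0.58 ± 0.175), Arhgdib (0.42 ± 0.144), Vav1 (0.53 ± 0.189) and Dock2 (0.56 ± 0.215), with edgeR adjusted p of 0.957 to 0.999. The median interaction of the list was −0.02, against −0.01 over all genes.

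The nearest relatives of Arhgap15 are Arhgap9, Arhgap12 and Arhgap27. Arhgap9, also a gene of blood cells, had 9.962 ± 1.12 CPM in VX_SHU and 7.92 ± 1.89 in VX_Veh, and 8.106 ± 0.867 in Sham_SHU and 10.13 ± 1.92 in Sham_Veh (SD, n = 4 each). Its interaction log2 difference was 0.65 ± 0.257 (SE; edgeR adjusted p = 0.999), whereas those of Arhgap12 and Arhgap27 were −0.09 ± 0.0862 and −0.15 ± 0.239. Per kb of merged exons, Arhgap12 stood at 7.18 CPM, Arhgap27 at 5.33, Arhgap9 at 2.38 and Arhgap15 at 0.759 (mean of 16 libraries).

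Leukocyte markers were read beside Arhgap15 since it is a gene of blood cells. All 14 markers were detected in every library, and 13 had an interaction log2 difference above 0, with a median of 0.46 against −0.01 over all genes. Macrophage markers had 14 of 14 above 0, with a median of 0.57, and 0 genes passed in either list. Ptprc, which encodes the common leukocyte antigen CD45, averaged 42.76 ± 2.37 CPM in VX_SHU and 33.32 ± 5.42 in VX_Veh, and 40.87 ± 4.03 in Sham_SHU and 44.62 ± 5.46 in Sham_Veh (SD, n = 4 each). Macrophage markers summed to 1076 to 1556 CPM in VX_SHU and 720.6 to 1186 in VX_Veh, and to 1029 to 1213 in Sham_SHU and 1130 to 1426 in Sham_Veh. Leukocyte markers summed to 452.5 to 3480 CPM in VX_SHU and 326.5 to 3170 in VX_Veh, and to 426.7 to 1054 in Sham_SHU and 444.4 to 643.7 in Sham_Veh. The highest leukocyte sums, in VX_SHU4 and VX_Veh4, held 2942 and 2747 CPM of Cd52, which epididymis also expresses. Within groups the leukocyte sum gave r = 0.238 and rho = 0.241 with Arhgap15 (exact permutation p = 0.383 and 0.341). Without Cd52, a change made after the data were seen, this sum gave r = 0.330 and rho = 0.253 (exact permutation p = 0.226 and 0.362). It gave r = 0.456 when Sham_SHU2 and Sham_SHU4 were left out as well. Endothelium and vessel wall (mural) markers gave larger r with Arhgap15, of 0.539 and 0.516 (exact permutation p = 0.0597 and 0.0352, adjusted 0.280 and 0.260). Skeletal muscle and pancreas markers gave −0.567 and −0.564 (exact permutation p = 0.0393 and 0.0222, adjusted 0.260 for both). Without Sham_SHU2 and Sham_SHU4 these were −0.301 and −0.422. Numbl gave r = −0.452 with the leukocyte sum (exact permutation p = 0.0375, adjusted 0.260) and −0.277 without Cd52. The part of these cell types in the Arhgap15 differences was not tested.

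Of the Notch pathway around Numbl, 37 further genes were tested and 0 passed in either averaged comparison. Their medians were 0.05 for SHU9119 averaged and 0.04 for sDVX averaged. The smallest p for SHU9119 averaged belonged to the receptor gene Notch4 (0.38 ± 0.102 SE; edgeR adjusted p = 0.0626), the endothelial ligand gene Dll4 (0.46 ± 0.131; 0.0692), the cofactor gene Snw1 (−0.19 ± 0.0573; 0.075) and Nrarp, a Notch target and feedback inhibitor (0.62 ± 0.188; 0.0764). Numb itself stood at 49.17 ± 0.882 CPM in VX_SHU and 51.6 ± 5.53 in VX_Veh, and at 50.11 ± 2.7 in Sham_SHU and 47.98 ± 4.17 in Sham_Veh (SD, n = 4 each). Its interaction log2 difference was −0.13 ± 0.11 (SE), against 0.55 ± 0.115 in Numbl. Per kb of merged exons, Numb had 12.7 CPM and Numbl 2.49 (mean of 16 libraries).

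Srpx2, the closest relative of Srpx and also on the X chromosome, showed another order of groups. It averaged 15.53 ± 2.41 CPM in VX_SHU and 12.44 ± 3.04 in VX_Veh, and 21.11 ± 3.63 in Sham_SHU and 14.73 ± 2.17 in Sham_Veh (SD, n = 4 each). Sham_SHU was thus the highest group in Srpx2 and the lowest in Srpx. For SHU9119 averaged, Srpx2 had a log2 fold change of 0.42 ± 0.13 (SE; edgeR adjusted p = 0.0806), which did not pass. Of the 13 sushi-domain genes tested besides Srpx, with Srpx2 among them, 0 passed in either averaged comparison. Their median for SHU9119 averaged was −0.36, with Susd4 (−2.46 ± 0.831, edgeR adjusted p = 0.091) and Susd3 (−1.31 ± 0.458, 0.0967) among the smallest p. Per kb of merged exons, Srpx had 9.99 CPM and Srpx2 5.46 (mean of 16 libraries).

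Lrrc17 was read beside other leucine-rich repeat genes of the matrix and the RANKL pathway. Of 17 leucine-rich repeat genes, 1 passed for SHU9119 averaged, against 1.87% of all genes (0 genes with the replicate block). It was Aspn, which encodes asporin and rose by a log2 fold change of 0.46 ± 0.103 (SE; edgeR adjusted p = 0.0461). In the interaction, Podn (podocan, 0.98 ± 0.273) and Dcn (0.83 ± 0.233) were positive as Lrrc17 was, and Podnl1 (−2.30 ± 0.67) was negative, each with an edgeR adjusted p of 0.957. Lrrc15, a membrane protein gene of the same repeat family, was near the floor at 0.166 CPM per kb, against 5.78 for Lrrc17 (mean of 16 libraries).

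Of 15 further RANKL pathway genes that passed the filter, 0 passed the test in either averaged comparison. Tnfrsf11b encodes osteoprotegerin, the decoy receptor of RANKL. It averaged 3.248 ± 1.24 CPM in VX_SHU and 2.798 ± 0.287 in VX_Veh, and 5.178 ± 1.87 in Sham_SHU and 2.313 ± 0.494 in Sham_Veh (SD, n = 4 each). Its log2 fold change for SHU9119 averaged was 0.69 ± 0.215 (SE; edgeR adjusted p = 0.0812), and its interaction was −0.95 ± 0.428, of opposite sign to Lrrc17. Nfatc1, the transcription factor gene that RANKL induces in osteoclasts, had 0.23 ± 0.0607 for SHU9119 averaged (edgeR adjusted p = 0.0624).

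**Figure D5:**
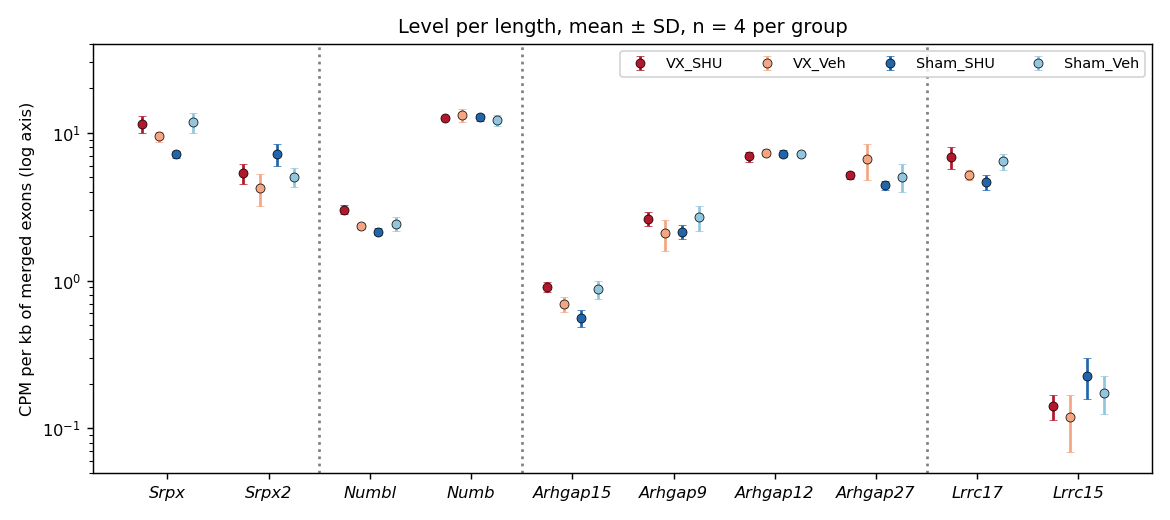
Level per kb of merged exons in CPM (vertical log axis), mean ± SD of 4 libraries per group, for the 4 genes and their nearest relatives, in blocks split by dotted lines. Srpx is lowest in Sham_SHU and Srpx2 highest there, Numb varies little over the groups (12.2 to 13.2), and Arhgap15 lies below its 3 relatives.

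Stromal progenitor markers were read beside Srpx and Lrrc17, which encode secreted or matrix proteins. Their sum was 10230 to 13540 CPM in VX_SHU and 6796 to 11070 in VX_Veh, and 10280 to 12050 in Sham_SHU and 11460 to 12620 in Sham_Veh. Of 16 markers, 2 rose for SHU9119 averaged, against 1.87% of all genes (0 genes with the replicate block). They were Col15a1 (0.97 ± 0.186 SE; edgeR adjusted p = 0.0334) and Dpt (0.52 ± 0.122; 0.0493). The list as a whole had a median of 0.06 for SHU9119 averaged, with 9 of 16 above 0. Its median interaction was also 0.06. Within groups the stromal sum gave r = −0.0637 with Srpx and 0.0895 with Lrrc17, and none of the 17 marker lists passed with any member after adjustment. The stromal sum was mostly Gsn, with a median of 7540 CPM, so its r says little about less abundant markers such as Pdgfra (78.1). The motile cilia markers summed to 10.93 to 241.4 CPM in VX_SHU and 24.26 to 1446 in VX_Veh, and to 15.8 to 204 in Sham_SHU and 12.43 to 526.3 in Sham_Veh. This sum gave r = 0.562 with Lrrc17 (rho = 0.568; exact permutation p = 0.0422 and 0.0448, adjusted 0.260 and 0.353; r = 0.598 without Sham_Veh1 and VX_SHU4) and 0.0571 with Srpx. T cell markers gave r = 0.581 and rho = 0.650 with Lrrc17 (exact permutation p = 0.0199 and 0.0159, adjusted 0.260 and 0.334). The T cell sum leans on Tcf7, which reached 48.7 CPM where the largest sum was 70.06, while Cd3e reached 1.78. Tcf7 averaged 5.044 ± 3.36 CPM in VX_SHU and 20.17 ± 19.5 in VX_Veh, and 2.783 ± 1.36 in Sham_SHU and 11.54 ± 9.15 in Sham_Veh (SD, n = 4 each). Pancreas markers gave r = −0.610 and rho = −0.538 with Lrrc17 (exact permutation p = 0.0458 and 0.0531, adjusted 0.261 and 0.357). Of them 1 passed the filter, Cela1, with a median of 9.22 CPM, and the others were near 0, so this sum is in effect Cela1. The part of these marker lists in the Lrrc17 differences was not tested.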

How the data were processed

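The assay was RNA-seq of polyA RNA, with 4 libraries for each combination of surgery and infusion. Raw counts by NCBI gene number were deposited by the authors. Bcl2fastq, TopHat, edgeR and the mm10 build were used, per the submitters' processing notes, without versions. Which counter, annotation and strand setting made the counts is not given in the sources here, so reads of overlapping antisense genes cannot be told apart.

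Of 24454 gene numbers, 24374 matched RefSeq on GRCm38.p6, the same build, and the other 80 held 0.557% to 1.24% of a library. Counts were analysed in R 4.3.3 with edgeR 4.0.16. Genes were filtered by filterByExpr and scaled by TMM, and all libraries entered 1 robust quasi-likelihood fit with a coefficient for each group (12 residual degrees of freedom). Adjusted p (Benjamini-Hochberg over 16682 genes) was called under 0.05. SE was derived from the log2 fold change and F. A prior count of 2 entered log2 CPM, and marker sums were taken as log2(CPM + 1). No 2 replicates were copies (chi-square per degree of freedom 11.8 to 204 over 24 pairs). CPM per kb used merged exons of GENCODE vM21. Gene spans and promoters are from RefSeq.

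The members and gene lists were chosen with earlier results of these data known. Genes were named by rule: the members, their ranked neighbours, the 5 genes most correlated with each (unnamed models left out), close relatives, and list genes that passed or had the 4 smallest p. A few of the last kind are left out for length. Any further gene was picked with its values in view. Correlations used deviations from group means and all 331776 pairings within groups. Alternatives were DESeq2 1.42.0 size factors and Wald test, no filter, non-robust dispersion, limma-voom (limma 3.58.1), a replicate block, and 1 library left out at a time. Fits without the 6 libraries whose epididymis or testis marker sum was 500 CPM or more, and without VX_SHU4 and VX_Veh4, were added after the data were seen. The pipeline was tested on simulated data.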

Additional observations from a re-analysis of the deposited data

Results flagged for a closer look

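Arhgap15 moved in opposite directions with SHU9119 in the 2 surgeries, with no overlap of libraries in either. The log2 fold change was 0.39 after sDVX and −0.64 after sham surgery. The difference itself was not tested, because the interaction chose the gene.

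In 72 sets of 4 libraries (members, relatives and 8 marker sums), 11 had a library far from the other 3 by Dixon's test, which chance does in about 1 of 20 sets. None of these concerned Srpx, Numbl, Arhgap15 or Lrrc17. Arhgap27 stood at 59.8 CPM in VX_Veh1, against 34.6 to 38.3 in the other VX_Veh libraries. Lrrc15 stood at 1.02 CPM in VX_Veh3, against 0.479 to 0.538. Leukocyte markers summed to 3480 CPM in VX_SHU4 and 3170 in VX_Veh4, and epididymis markers to 10940 in VX_SHU4 and 10160 in VX_Veh4. Mesothelium markers summed to 785 CPM in VX_Veh1. Testis and sperm markers summed to 1504 CPM in Sham_SHU3 and 3083 in Sham_Veh4. Motile cilia markers summed to 241 CPM in VX_SHU2 and 204 in Sham_SHU3.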

How the results depend on the processing

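The interaction of the 4 members chose them, so its values under the 24 alternatives, all of the same sign, are a description. For Arhgap15 it was 1.27 and for Numbl 0.67 without the 6 libraries high in epididymis or testis markers. For SHU9119 averaged, 312 genes became 167 without the low-count filter, 2781 with DESeq2, 3899 with limma-voom, 0 with the replicate block, 4062 without those 6 libraries, and 3 (without VX_Veh3 or Sham_SHU4) to 1612 (without Sham_SHU3) with 1 library left out. For sDVX averaged, 0 became 409 with DESeq2 and 112 with limma-voom, and stayed 0 with 1 library left out. For the interaction, 0 became 8 with DESeq2, 13 with limma-voom, and 0 to 1 with 1 library left out. With 1 library left out, Lrrc17 for SHU9119 averaged ranged from −0.06 to 0.03 and changed sign in 5 of the 16 fits, and Numbl for sDVX under vehicle from −0.10 to 0.01. Same-numbered libraries deviated together in some pairs and not in others (r from −0.689 to 0.676 over 24 pairs, above 0.1 in 13). Of 16 libraries, 2 correlated best with their own number. The replicate block compares libraries that share a number, and the labels do not say what the number stands for. Arhgap15 had 92 to 267 counts per library and a biological coefficient of variation of 23.1%, against 13.5% to 17.4% for the other members.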
